A study of Saccharomyces cerevisiae with 17 samples.

Results

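The genes described here encode 10 proteins of the yeast nuclear membrane whose work borders on that of Brr6, and they were chosen by name from 6572 features counted in each RNA library of Saccharomyces cerevisiae. They are BRL1 (YHR036W) and APQ12 (YIL040W), the partners of Brr6; SRC1 (YML034W), HEH2 (YDR458C) and CHM7 (YJL049W), which act at the inner nuclear membrane; SPO7 (YAL009W) and NEM1 (YHR004C), the subunits of a lipid-regulating phosphatase; and NDC1 (YML031W), POM34 (YLR018C) and POM152 (YMR129W), the membrane anchors of the nuclear pore. All 10 passed the filter on low counts and were tested, with totals over the 8 RNA libraries of 523 counts for APQ12 and 3084 to 21692 counts for the others.

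The wild type (WT) was strain YPH399 and the mutant was yDBK168, in which the brr6-1 allele, marked with LEU2 and HIS3, replaces an arginine of its putative zinc finger by lysine. Each is a single strain of mating type α, and both carry the alleles lys2-801, ade2-10, ura3-52, leu2-1 and Trp1-63. Cultures at 30 °C grew in glucose (2%), or in raffinose (2%) with 0.04% sucrose and then for 2 h with 2% galactose, here called galactose, with 2 biological replicates (A and B) per strain and medium. Galactose against glucose therefore compares whole growth regimes, not the sugar by itself. RNA came from whole cultures, so that fewer cells of a kind and less RNA per cell cannot be told apart.

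The yeast nuclear envelope stays closed through the cell cycle, so pores and spindle pole bodies must be built into an intact double membrane. Brr6, Brl1 and Apq12 are small integral membrane proteins of the nuclear envelope and endoplasmic reticulum that contact one another and are needed for normal pore assembly and membrane lipid balance. The LEM-domain proteins Src1 (also called Heh1) and Heh2 watch over that assembly from the inner membrane, and Src1 recruits Chm7, an ESCRT-related protein, to seal faulty sites. Nem1 and Spo7 form the phosphatase that activates the lipin Pah1 and so steers phosphatidic acid away from phospholipids and membrane growth.

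The libraries held 15059271 to 21637381 counts in genes. Expression is given as CPM, counts of a gene relative to the library's total after scaling by edgeR's TMM factors of 0.808 to 1.20. Changes are log2 fold changes ± standard error (SE) with 2 libraries per group, and adjusted p-values come from edgeR's quasi-likelihood test with Benjamini-Hochberg adjustment over 6297 tested genes and a threshold of 0.05. Of the α-cell genes, the receptor gene STE3 stood at 87.0 to 129 CPM, MF(ALPHA)1 at 88.0 to 302 and MF(ALPHA)2 at 5.73 to 133. Of the a-cell genes, MFA2 stood at 0 to 0.592 CPM, MFA1 at 0.453 to 2.13 and the receptor gene STE2 at 5.10 to 8.07. STE3 and MF(ALPHA)1 thus lay above the a-cell genes in every library, as the labelled mating type has it. STE2 was not absent, and the lowest MF(ALPHA)2 value lay inside its range. BRR6 itself had 28.0 and 29.5 CPM in WT glucose, against 98.5 and 103 CPM in the mutant. After galactose the WT values were 24.4 and 19.1 CPM and the mutant values 216 and 169 CPM. The mutant thus had more of its transcript in each medium, with a log2 fold change of 1.81 ± 0.16 (glucose, adjusted p = 0.000129) and 3.14 ± 0.17 (galactose, adjusted p = 5.9e-06), which separates the labelled strains but does not show the base change. The strains also differed along chromosome III, where 133 of 159 genes rose and 0 fell in brr6-1 in glucose (median 1.08) and 125 rose and 3 fell in galactose (median 0.96), against medians of -0.03 and -0.04 over the other chromosomes. None of the 10 genes lies on chromosome III.

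Per kilobase of gene length, the pore anchors POM34 and NDC1 had the highest means of the 10 transcripts in every group and APQ12 the lowest. In both galactose groups POM34 overlapped HEH2, the next in order. In WT glucose libraries POM34 averaged 80.4 ± 1.85 (SD, n = 2) CPM per kb and NDC1 70.4 ± 4.47. HEH2 followed at 59.9 ± 2.96, then BRL1 at 55.6 ± 2.67 and SPO7 at 52.9 ± 4.42, and the last 2 overlapped. The lower ranks were held by NEM1 at 32.6 ± 0.927, POM152 at 29.9 ± 1.69, SRC1 at 22.1 ± 1.92, CHM7 at 9.82 ± 0.190 and APQ12 at 6.63 ± 0.716 CPM per kb. No pair of neighbours in this order overlapped apart from BRL1 and SPO7. Against 5757 genes of known length, these levels reached from the 17.6th percentile (APQ12) to the 64.5th percentile (POM34). SRC1 holds an intron, so its length, and with it the divisor, includes sequence absent from the spliced RNA.

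The order moved at a few places between groups. NDC1 stood first in the other 3 groups, at 90.2 ± 6.33 CPM per kb in brr6-1 glucose without overlap with POM34 (71.7 ± 2.16), but overlapping it in both galactose groups. SRC1 stood above POM152 in both galactose groups, at 35.3 ± 2.23 against 29.9 ± 1.42 in WT and at 29.0 ± 1.14 against 27.2 ± 0.587 in brr6-1, and below it in both glucose groups. BRL1, SPO7 and NEM1 lay together in WT galactose, at 42.1 ± 5.77, 41.9 ± 4.96 and 41.6 ± 1.25 CPM per kb. In brr6-1 BRL1 instead shared its level with HEH2 in both media, both at 53.3 CPM per kb in glucose and both at 57.9 in galactose.

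**Figure D1:**
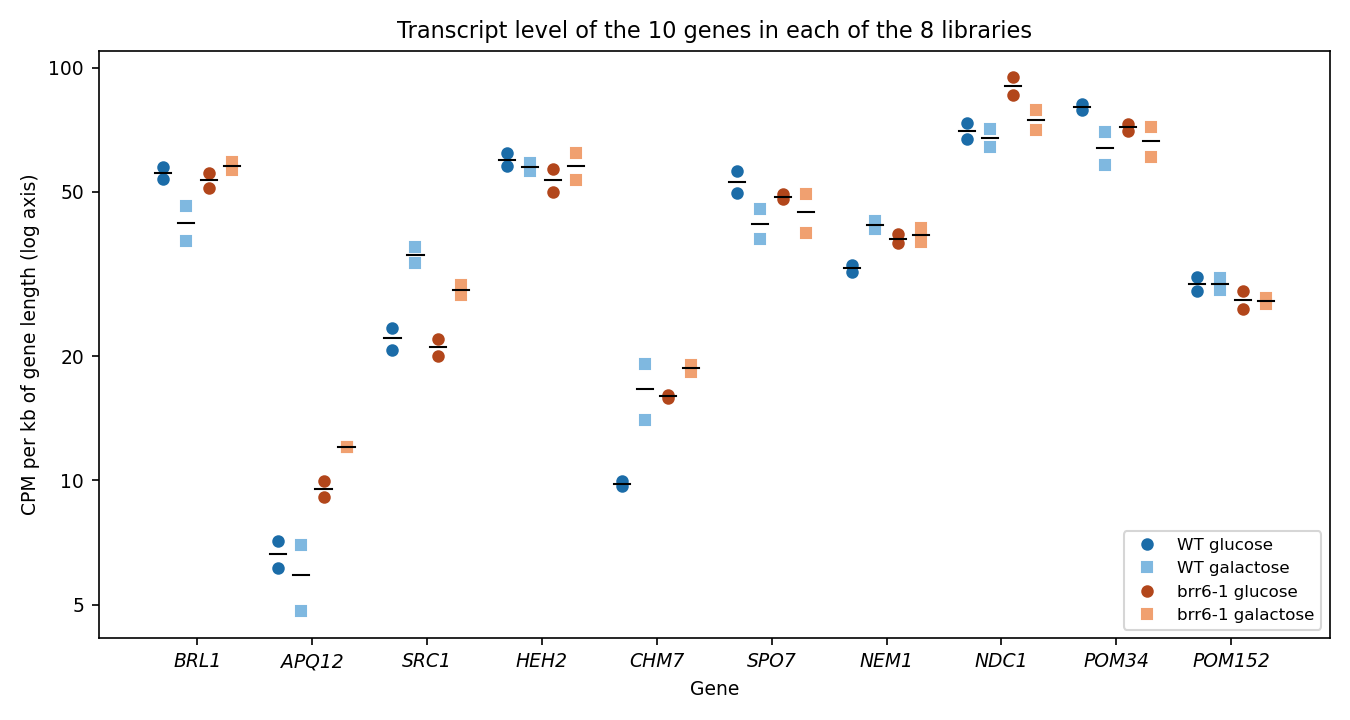
Level of each of the 10 transcripts as CPM per kb of gene length on a log axis, with 1 point per library (circles for glucose, squares for galactose), WT in blue and brr6-1 in orange, and a bar at each group's mean. APQ12 and CHM7 lie lowest, and NDC1 in brr6-1 glucose lies highest at a mean of 90.2.

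In glucose, the comparison of brr6-1 with WT asks which transcripts differ when the mutant grows in the preferred sugar. CHM7 and NDC1 rose, none of the 10 fell, and 8 did not pass. Over all genes 16.7% rose and 19.5% fell (36.2% in either direction). The 2 rises among 10 are close to the share that rose, and the 2 calls lie below the share in either direction. The median absolute log2 fold change was 0.17 for the 10 genes and 0.41 over all tested genes, with CHM7 (0.70) and APQ12 (0.52) above the latter. Among the 4371 genes with a mean of at least 4 on the log2 CPM scale, where 9 of the 10 lie, the medians were 0.17 and 0.34.

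CHM7, the ESCRT-related factor that Src1 recruits, measured 13.5 and 13.1 CPM in WT, against 21.8 and 21.5 CPM in brr6-1. Both mutant libraries were higher, with a gap wider than the spread inside either group. The increase was 0.70 ± 0.17 (adjusted p = 0.0107), and the call was lost when WT glucose replicate A (adjusted p = 0.0851) or B (0.102) was left out. The 8 other settings, the replicate block among them, left the call in place.

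NDC1, which anchors both pores and spindle pole bodies in the membrane, measured 132 and 145 CPM in WT, against 186 and 169 CPM in brr6-1. The groups did not overlap, as was true in this comparison of 75.1% of all genes in one direction or the other. The rise was 0.36 ± 0.12 (adjusted p = 0.0445), just inside the threshold. It no longer passed with DESeq2's size factors (0.0641), by DESeq2's Wald test (0.0742) or with a replicate block (0.0521). Nor did it pass without WT glucose replicate A (0.342) or B (0.170), brr6-1 glucose replicate A (0.192), or brr6-1 galactose replicate A (0.0626) or B (0.0616). Genes in its range of abundance, 7 to 8 on the log2 CPM scale, had a median change of -0.23, with 88 rising and 285 falling of 832.

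The partners of Brr6 did not pass in glucose. BRL1 measured 76.0 and 81.4 CPM in WT, against 78.7 and 72.3 CPM in brr6-1, so the groups overlapped. Its log2 fold change of -0.06 ± 0.13 (adjusted p = 0.728) has a 95% interval from -0.35 to 0.23. APQ12, the scarcest, was counted 40 and 52 times in WT and 63 and 68 times in brr6-1, or 2.55 and 2.98 against 4.15 and 3.81 CPM. The mutant libraries were higher without overlap, but the change of 0.52 ± 0.28 did not pass (adjusted p = 0.159), and its sign depended on the scaling, since cyclic loess gave -0.16.

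The pore anchors POM34 and POM152 and the inner membrane genes SRC1 and HEH2 did not pass in glucose. POM34 measured 71.2 and 73.5 CPM in WT, against 65.9 and 63.1 CPM in brr6-1 (-0.17 ± 0.13, adjusted p = 0.341). POM152, whose protein forms the lumenal ring of the pore, stood at 115 and 125 CPM against 116 and 104 CPM (-0.13 ± 0.12, adjusted p = 0.391). SRC1 stood at 61.7 and 54.5 CPM against 52.7 and 57.9 CPM (-0.07 ± 0.12, adjusted p = 0.666). Of these 3, only POM34 kept its groups apart, with the mutant libraries below. HEH2 measured 115 and 123 CPM in WT, against 113 and 99.4 CPM in brr6-1 (-0.17 ± 0.13, adjusted p = 0.301), also without overlap.

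The phosphatase subunits did not pass either. NEM1, the catalytic subunit, measured 44.6 and 42.9 CPM in WT, against 52.9 and 50.4 CPM in brr6-1, which is 0.24 ± 0.12 (adjusted p = 0.123). SPO7, the regulatory subunit, measured 43.7 and 38.9 CPM in WT, against 37.4 and 38.6 CPM in brr6-1, which is -0.12 ± 0.15 (adjusted p = 0.534). NEM1 passed under cyclic loess, at 0.35 (adjusted p = 0.0494), and with library totals alone, at 0.56 (adjusted p = 0.00502), a scaling that moved the median over all genes from 0.03 to 0.36. With those totals APQ12 passed as well, at 0.85 (adjusted p = 0.0444).

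In galactose, the comparison of brr6-1 with WT asks the same of cells after the shift. Here both partners of Brr6, BRL1 and APQ12, rose, none of the 10 fell, and 8 did not pass. Over all genes 8.29% rose and 14.3% fell (22.6% in either direction). The 2 calls among 10 lie close to the share in either direction, and the 2 rises lie above the share that rose. Whether 2 of 10 differs from these shares was not tested. The median absolute log2 fold change was 0.14 for the 10 genes and 0.32 over all genes, or 0.14 against 0.27 among genes of at least 4 on the log2 CPM scale.

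BRL1, which encodes the closest relative of Brr6 in this yeast, measured 53.8 and 65.4 CPM in WT, against 83.8 and 80.0 CPM in brr6-1. The mutant libraries lay above WT without overlap; in this comparison 66.0% of all genes kept the groups apart in one direction or the other. The rise was 0.46 ± 0.13 (adjusted p = 0.0291), a fold of 1.38. It did not pass in a fit of the 4 compared libraries alone (0.0561), nor without WT glucose replicate A (0.0700) or B (0.0698), WT galactose replicate A (0.0987), or brr6-1 galactose replicate A (0.169) or B (0.0899).

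APQ12, whose product has parts in mRNA export and pore assembly, was counted 64 and 39 times in WT and 97 and 100 times in brr6-1. This is 2.90 and 2.01 against 5.04 and 5.04 CPM, with both mutant libraries above WT. The rise was 1.03 ± 0.27 (adjusted p = 0.0218), a fold of 2.04, and the largest fitted change of the 10 genes in either comparison of strains. It did not pass under cyclic loess (0.66, adjusted p = 0.0824), in a fit of the 4 compared libraries (0.0534), or without WT galactose replicate B (0.0839) or brr6-1 galactose replicate A (0.129) or B (0.0975). Genes as scarce as APQ12, under 2 on the log2 CPM scale, moved the same way, with a median of 0.76 in galactose (67 rose and 10 fell of 1014) and of 1.20 in glucose (218 rose and 5 fell). The part of this shared shift in the APQ12 result was not tested.

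The glucose pair, CHM7 and NDC1, did not pass in galactose. CHM7 measured 26.0 and 19.0 CPM in WT, against 24.8 and 25.7 CPM in brr6-1, inside the WT range (0.17 ± 0.16, adjusted p = 0.462). NDC1 stood at 126 and 140 CPM against 155 and 139 CPM, again overlapping (0.15 ± 0.12, adjusted p = 0.407), though it passed with library totals alone (0.39, adjusted p = 0.0332), which moved the median over all genes from 0.01 to 0.25. SRC1 was the member with the lowest fitted change, at 96.9 and 88.6 CPM in WT and 74.2 and 78.4 CPM in brr6-1. Its libraries did not overlap, but -0.28 ± 0.12 did not pass (adjusted p = 0.120).

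The other 5 genes stayed within 0.14 of WT on the log2 scale in galactose. HEH2 measured 117 and 112 CPM in WT, against 124 and 107 CPM in brr6-1 (0.01 ± 0.12, 95% interval -0.27 to 0.29). POM34 stood at 52.2 and 62.8 CPM against 64.6 and 54.8 CPM (0.05 ± 0.13), and POM152 at 116 and 124 CPM against 111 and 107 CPM (-0.14 ± 0.11). Only POM152 of these kept its groups apart. NEM1 stood at 54.6 and 57.0 CPM against 50.8 and 54.9 CPM (-0.08 ± 0.11), and SPO7 at 29.9 and 35.4 CPM against 38.6 and 31.0 CPM (0.09 ± 0.15). The adjusted p-values of these 5 ranged from 0.403 to 0.962.

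**Figure D2:**
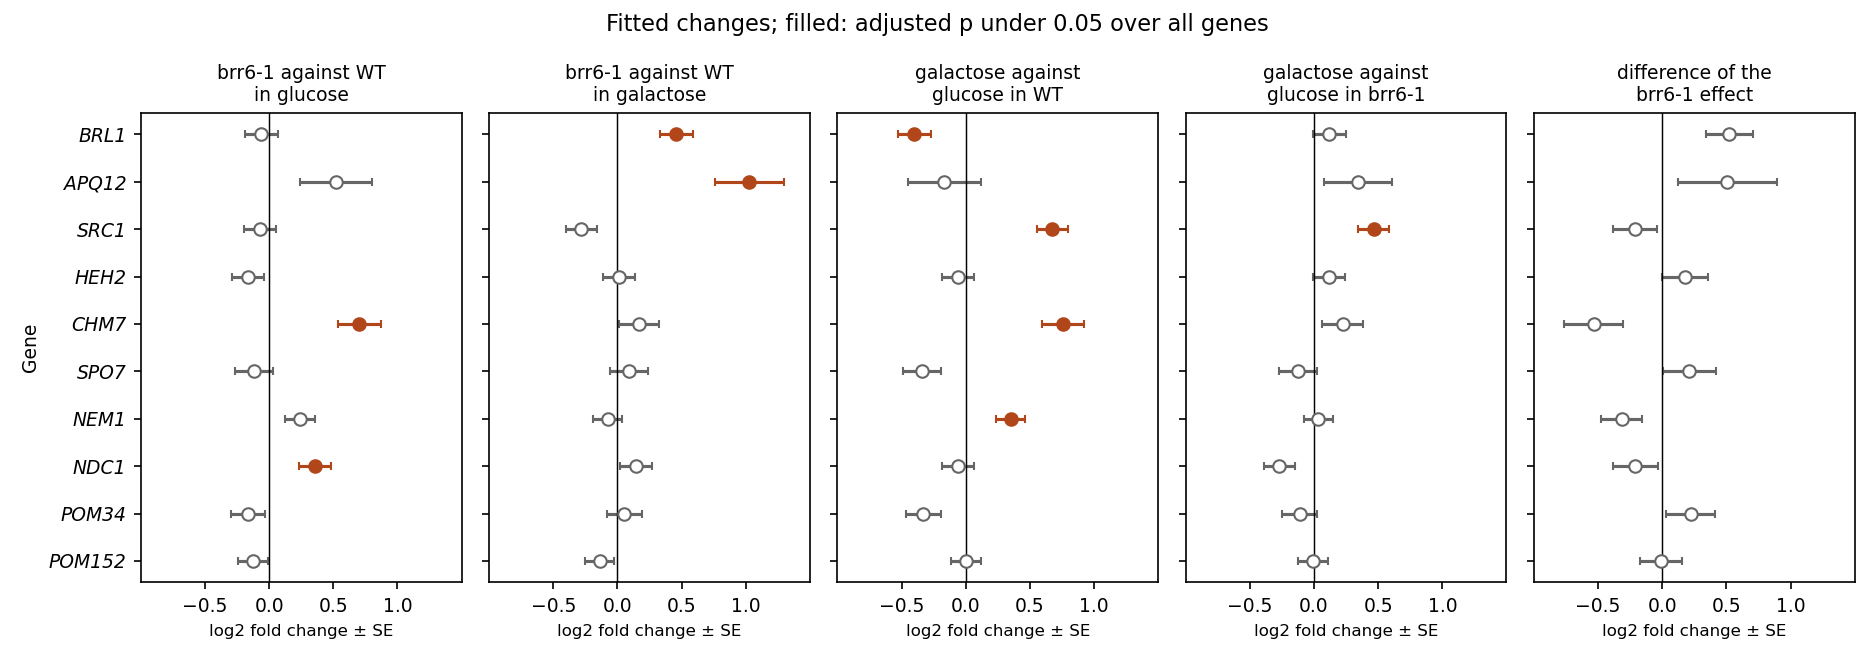
Fitted log2 fold changes (points) ± SE (bars) of the 10 genes in the 5 comparisons; filled orange points have an adjusted p under 0.05 over all genes. APQ12 at 1.03 in galactose is the farthest point from 0, and no gene is filled in the rightmost panel.

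Between the growth regimes, WT cells changed more of these genes than the mutant did by count. SRC1, CHM7 and NEM1 rose from glucose to galactose in WT, BRL1 fell, and 6 did not pass. Over all genes 24.3% rose and 20.5% fell (44.8% in either direction), so 4 called of 10 is close to the background. In brr6-1 SRC1 rose and the other 9 did not pass, where 8.75% of all genes rose and 7.26% fell (16.0% in either direction). The libraries of the media did not overlap for 75.9% of all genes in WT and for 57.6% in brr6-1. The counts do not show a difference between strains, which is tested gene by gene through the difference of effects.

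SRC1 had the lowest adjusted p of the 10 genes in this comparison, with 61.7 and 54.5 CPM in WT glucose and 96.9 and 88.6 CPM in WT galactose, and at 52.7 and 57.9 against 74.2 and 78.4 CPM in brr6-1. In both strains both galactose libraries were the higher ones. The rise was 0.68 ± 0.12 in WT (adjusted p = 0.00172) and 0.46 ± 0.12 in brr6-1 (adjusted p = 0.0282). The WT call was lost without WT glucose replicate B (0.0598). The brr6-1 call was lost with DESeq2's size factors (0.0501), in a fit of its 4 libraries (0.0813), and without WT glucose replicate A (0.0818) or B (0.0815), brr6-1 glucose replicate A (0.161), or brr6-1 galactose replicate A (0.0962) or B (0.158).

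CHM7 rose in WT by 0.76 ± 0.16 (adjusted p = 0.00424) from 13.5 and 13.1 to 26.0 and 19.0 CPM, and stood at 21.8 and 21.5 against 24.8 and 25.7 CPM in brr6-1 (0.22 ± 0.16, adjusted p = 0.404). WT glucose is thus the group that stands low, with the other 3 groups between 19.0 and 26.0 CPM. The WT call was lost under cyclic loess (0.0869) and without WT glucose replicate B (0.0631). Genes in its range of abundance, 4 to 5 on the log2 CPM scale, had a median change of 0.29 in the same comparison.

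NEM1 rose in WT from 44.6 and 42.9 to 54.6 and 57.0 CPM, by 0.35 ± 0.12 (adjusted p = 0.0307). In brr6-1 its glucose libraries stood at 52.9 and 50.4 CPM and its galactose libraries at 50.8 and 54.9 CPM (0.03 ± 0.11, adjusted p = 0.880). As with CHM7, the 2 WT glucose libraries were the lowest of the 8. The WT call was lost with DESeq2's size factors (0.0869), by DESeq2's Wald test (0.149), under cyclic loess (0.0813), and without WT glucose replicate A (0.191) or B (0.297) or WT galactose replicate A (0.0573) or B (0.122).

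BRL1 fell by 0.40 on the log2 scale in WT (SE 0.13, adjusted p = 0.0285), from 76.0 and 81.4 to 53.8 and 65.4 CPM. In brr6-1 the galactose libraries, at 83.8 and 80.0 CPM, lay above the glucose ones, at 78.7 and 72.3 CPM, but 0.12 ± 0.13 did not pass (adjusted p = 0.599). The WT galactose libraries were the lowest of the 8. The fall in WT was lost when libraries were scaled by their totals alone (-0.11, adjusted p = 0.456), a scaling that moved the median over all genes from 0.10 to 0.40, and without WT glucose replicate A (0.0600) or B (0.117) or WT galactose replicate A (0.163).

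The remaining genes did not pass in either strain. SPO7 (-0.34 ± 0.15, adjusted p = 0.0859) and POM34 (-0.33 ± 0.13, adjusted p = 0.0687) had lower values in WT galactose without overlap. Both passed under cyclic loess (adjusted p = 0.0173 and 0.0481), POM34 by DESeq2's Wald test (0.0367), and both with DESeq2's size factors (0.0456 and 0.0349) and without WT galactose replicate B (0.0419 and 0.0189). NDC1 in brr6-1 stood at 186 and 169 CPM in glucose and 155 and 139 CPM in galactose, a lower level that did not pass (-0.27 ± 0.12, adjusted p = 0.177). For APQ12 the changes were -0.17 ± 0.28 in WT and 0.34 ± 0.26 in brr6-1 (adjusted p = 0.656 and 0.447), and under cyclic loess the WT value was -0.73 (adjusted p = 0.0313).

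Whether the effect of brr6-1 differed between the media was tested directly, and 0 of the 10 genes passed, where 5.59% of all genes did (1.65% higher and 3.94% lower). Without adjustment 2 of the 10 had p under 0.05, and DESeq2's Wald test also called 0. These were BRL1, whose effect was higher in galactose by 0.52 ± 0.18 (adjusted p = 0.111), and CHM7, whose effect was lower there by a log2 difference of -0.54 ± 0.23 (adjusted p = 0.175). Both passed without WT galactose replicate B (adjusted p = 0.0355 and 0.0437). For APQ12 the difference was 0.51 ± 0.39 (adjusted p = 0.449) with a 95% interval from -0.35 to 1.37, and for NDC1 it was -0.21 ± 0.17 (adjusted p = 0.486). That CHM7 and NDC1 passed in glucose and BRL1 and APQ12 in galactose is therefore not shown to be a difference between media. The comparisons share libraries, the 2 WT groups in particular, so their values stand side by side and are not independent.

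**Figure D3:**
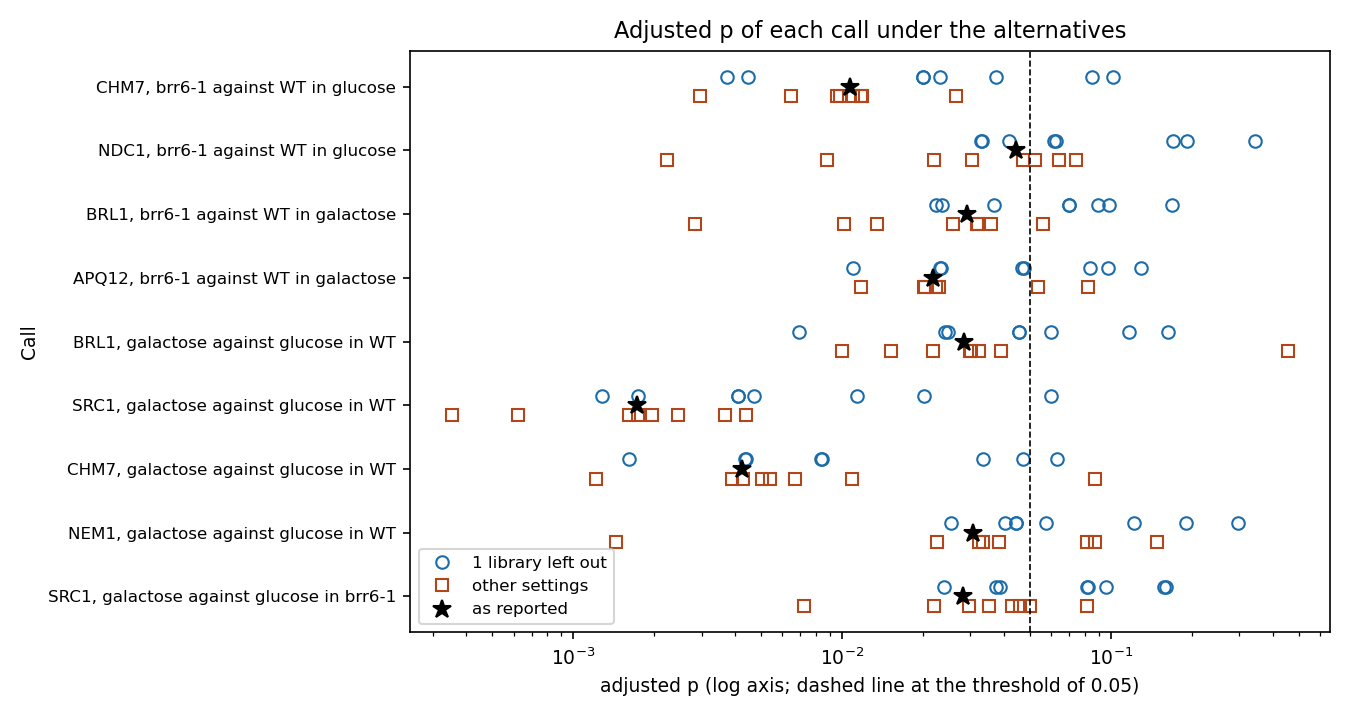
Adjusted p (log axis) of each of the 9 calls as reported (star), with 1 library left out (circles) and under the other settings (squares); the dashed line marks 0.05. Each of the 9 calls crosses the line without at least 1 library; SRC1 in WT, at 0.00172 as reported, crosses it without WT glucose replicate B (0.0598) and nowhere else.

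The 10 transcripts differed in how far they ranged across the 8 libraries. POM152 ranged over 0.26 on the log2 CPM scale from its lowest to its highest library, a range smaller than that of all but 0.969% of the tested genes. HEH2 ranged over 0.32 (2.27th percentile) and NEM1 over 0.41 (5.97th percentile). POM34, SPO7, NDC1 and BRL1 ranged over 0.49 to 0.64, SRC1 over 0.88 and CHM7 over 0.98 (49.5th percentile). APQ12 ranged over 1.28 (65.9th percentile), with the fewest counts of the 10. These percentiles are over genes of every abundance, and a gene with few counts has a wider counting error.

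The transcripts whose pattern over the 8 libraries lay nearest to BRL1 were RTC4, MTG2 and CHZ1. Their root mean square differences from BRL1 in centred log2 CPM were 0.0617, 0.0674 and 0.0697. Nearest to APQ12 were YIL089W, ATC1 and STD1, at 0.0841, 0.110 and 0.132. With 8 libraries in 4 groups, many genes can lie near any one pattern.

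In the RefSeq table of the R64 genome, all 10 genes lie apart from their annotated neighbours, by 86 to 405 bp at the nearest. That table matched 5898 of the 6572 counted features, and overlap with the unmatched ones was not checked. SRC1 (chromosome XIII, 209525 to 212155) and NDC1 (chromosome XIII, 214189 to 216156) flank the repair gene RAD52, 360 and 259 bp away. They did not share a pattern, since SRC1 rose with galactose in WT while NDC1 stood at -0.06 ± 0.12. BRL1 lies on chromosome VIII (180345 to 181760), as does NEM1 (111754 to 113094). APQ12 lies on chromosome IX (277723 to 278139), CHM7 on X (345973 to 347325), SPO7 on I (135854 to 136633), HEH2 on IV (1380055 to 1382046), POM34 on XII (178707 to 179606) and POM152 on XIII (527804 to 531817).

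The wider pathway was read from lists of genes around the 10. POM33 and PER33 stand in both the nucleoporin and the membrane shape list, so the counts of those lists are not separate. Of 16 genes of the lipin pathway and nuclear membrane lipids, 2 rose and 3 fell in brr6-1 in glucose. The share called was 31.2%, beside 36.2% of all genes. INO1, which makes the inositol precursor and is induced when phosphatidic acid is high, rose by 1.10 ± 0.17 (adjusted p = 0.00193) and kept its call under every alternative that tested it. DGK1, the diacylglycerol kinase that opposes Pah1, had a change of -0.73 ± 0.16 (adjusted p = 0.00834). The desaturase gene OLE1 had -0.87 ± 0.25 (adjusted p = 0.0224) and the phospholipid methyltransferase gene CHO2 had -0.65 ± 0.15 (adjusted p = 0.0102). All 3 falls were lost without WT glucose replicate A (adjusted p = 0.0568, 0.0683 and 0.0502) or B (0.0618, 0.0965 and 0.0629), and OLE1 also without brr6-1 glucose replicate B (0.0894). The list's count was 1 without either WT glucose replicate and 8 without brr6-1 glucose replicate B.

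In galactose 0 of the 16 rose and 3 fell (18.8% called, beside 22.6% of all genes). These were OPI3 (-1.18 ± 0.24, adjusted p = 0.00794) and CHO2 (-0.85 ± 0.15, adjusted p = 0.00396), the methyltransferases that turn phosphatidylethanolamine into phosphatidylcholine, and ACC1 (-0.91 ± 0.22, adjusted p = 0.0156), the acetyl-CoA carboxylase. Without brr6-1 galactose replicate A none of the 3 passed (adjusted p = 0.0870, 0.0585 and 0.146), and ACC1 did not without WT galactose replicate B (0.0839). The count was 2 without WT galactose replicate B, 6 without WT galactose replicate A and 7 without either brr6-1 glucose replicate. It was 5 with the replicate block, by DESeq2's Wald test and with only the 4 libraries compared, and 7 with library totals alone. PAH1, the lipin itself, was outside the 3 genes called in galactose. The median log2 fold change of the list was -0.08 in glucose and -0.31 in galactose, beside 0.03 and 0.01 over all genes.

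Of 31 nucleoporin genes other than the 3 anchors, 7 rose and 4 fell in brr6-1 in glucose (median 0.15). The share called was 35.5%, close to the 36.2% of all genes. NUP2 (0.83 ± 0.16, adjusted p = 0.00490), MLP2 (0.82 ± 0.18, 0.00792) and NSP1 (0.79 ± 0.15, 0.00558), which encode a mobile basket protein, a basket filament and a channel protein, rose. GLE2, an mRNA export factor bound to the pore, fell by 0.72 on the log2 scale (SE 0.13, adjusted p = 0.00442) and kept its call under every alternative that tested it. The rises were lost without WT glucose replicate A (adjusted p = 0.0722, 0.0752 and 0.0802), and MLP2 also without B (0.0731). The list's count was 7 without brr6-1 glucose replicate A, 2 without WT glucose replicate A and 4 without B. After galactose DESeq2's Wald test called 0 of the 31, and their median was 0.03. There edgeR called 0, beside 22.6% of all genes, with 0 at an unadjusted p under 0.05. Without WT galactose replicate A it called 1, with library totals alone 5, and cyclic loess gave 2.

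The membrane-sealing ESCRT-III list held 10 genes beside CHM7. The share called was 20% in glucose and 10% in galactose, beside 36.2% and 22.6% of all genes. In glucose 0 rose and 2 fell, DID4 (-0.42 ± 0.11, adjusted p = 0.0188) and DID2 (-0.45 ± 0.15, adjusted p = 0.0410), and both were lost without WT glucose replicate A (0.0810 and 0.0912) or B (0.102 and 0.197) or brr6-1 glucose replicate A (0.104 and 0.187). SNF7, the main ESCRT-III subunit that Chm7 recruits, stood at 0.25 ± 0.12 (adjusted p = 0.119) and passed under cyclic loess (0.38, adjusted p = 0.0385) and with library totals alone (0.57, adjusted p = 0.00753). In galactose 1 rose and 0 fell, VPS20 (0.39 ± 0.12, adjusted p = 0.0348), which was lost without any single library of the 4 compared (0.0515 to 0.209) or either WT glucose library (0.0907 and 0.0909). The count in galactose was 2 without brr6-1 glucose replicate B. The list's median was -0.09 in glucose and 0.02 in galactose.

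Of 7 genes for inserting the spindle pole body, the other structure that Ndc1 anchors, 1 rose in glucose and 2 in galactose. The share called was 14.3% and 28.6%, beside 36.2% and 22.6% of all genes. KAR1, a half-bridge component, rose in both (0.55 ± 0.14, adjusted p = 0.0165, and 0.56 ± 0.14, adjusted p = 0.0185), and SFI1, its centrin-binding neighbour, rose in galactose (0.48 ± 0.12, adjusted p = 0.0202). In glucose KAR1 was lost without WT glucose replicate A (0.128) or B (0.126) or brr6-1 glucose replicate A (0.0673). In galactose KAR1 and SFI1 were both lost without WT galactose replicate B (0.120 and 0.0925) or brr6-1 galactose replicate A (0.0770 and 0.145) or B (0.0986 and 0.0590), and SFI1 without WT glucose replicate A (0.0522) or B (0.0522). Of 8 genes that shape the endoplasmic reticulum and nuclear membrane, 1 fell in glucose, NVJ1 (-0.32 ± 0.11, adjusted p = 0.0446), and 0 changed in galactose, where 3 had an unadjusted p under 0.05, DESeq2's Wald test called 0, and library totals alone and cyclic loess called 1 each (PER33 under the latter, -0.74, adjusted p = 0.0489). The NVJ1 call was lost without any of the 4 glucose libraries, at adjusted p of 0.0573 to 0.163, or without brr6-1 galactose replicate A (0.0673) or B (0.0672). The shape genes called were 2 in glucose without either WT galactose replicate and 1 in galactose without WT galactose replicate B.

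Of 11 genes for inner nuclear membrane quality control and the tether of ribosomal DNA, 2 rose and 2 fell in glucose, and 1 rose and 3 fell in galactose. The share called was 36.4% in each medium, beside 36.2% and 22.6% of all genes. CSM1, a subunit of the complex that ties ribosomal DNA to Src1 and Nur1, rose by 1.65 ± 0.29 in glucose (adjusted p = 0.00381), under every alternative that tested it, and by 1.12 ± 0.26 in galactose (adjusted p = 0.0136). CSM1 lies on chromosome III, whose medians of 1.08 and 0.96 are given above, and their part in its rise was not tested. The galactose call was lost without WT galactose replicate B (0.0644) or brr6-1 galactose replicate A (0.0585) or B (0.0937). In glucose ESC1, on chromosome XIII, rose by 0.83 ± 0.14 (adjusted p = 0.00281). CUE1 (-0.64 ± 0.14, 0.00831) and UBC6 (-0.37 ± 0.12, 0.0404) fell, but not with library totals alone (0.0726 and 0.780). These glucose calls were all lost without WT glucose replicate B. The brr6-1 effect on ESC1 differed between media (-0.75 ± 0.19, adjusted p = 0.0487), but not with DESeq2's size factors (0.0577) or without either WT glucose replicate. ASI1, a subunit of the ubiquitin ligase of the inner membrane, had -0.55 ± 0.12 in galactose (adjusted p = 0.00997), and the ubiquitin-conjugating enzyme gene UBC6 had -0.62 ± 0.12 (adjusted p = 0.00677). These were lost without brr6-1 galactose replicate B (ASI1, 0.0770) and A (UBC6, 0.0676). The list's count of 4 in glucose was 2 without WT glucose replicate A or brr6-1 glucose replicate A and 1 without WT glucose replicate B, and the count of 4 in galactose was 2 without WT galactose replicate B and 1 without brr6-1 galactose replicate A or B.

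Several of these list calls also depended on the scaling or the filter. With library totals alone, OLE1 (adjusted p = 0.0642), DGK1 (0.0673), CHO2 (0.105), DID2 (0.507), DID4 (0.516) and NVJ1 (0.958) did not pass in glucose, nor ASI1 (0.0919) in galactose. Under cyclic loess OLE1 (0.0649), CHO2 (0.106), DID2 (0.0608), DID4 (0.126) and NVJ1 (0.339) did not pass in glucose. With at least 100 counts in 2 libraries DID2 (0.0574) and NVJ1 (0.0689) did not, and VPS20 in galactose did not by DESeq2's Wald test (0.0509) or in a fit of the 4 libraries compared (0.0748). Other calls were gained under the same settings. In glucose SFI1 passed under cyclic loess (adjusted p = 0.0281) and with library totals alone (0.00680), and IST1 (0.0366) and PER33 (0.0192) passed with library totals. The counts called in glucose with library totals were 18 nucleoporin, 4 ESCRT-III, 2 spindle pole body and 3 membrane shape genes; cyclic loess gave 1 ESCRT-III, 2 spindle pole body and 0 shape genes, the filter of 100 counts 1 ESCRT-III and 0 shape genes, and the fit of 4 libraries 2 shape genes. In galactose the ESCRT-III count was 3 with library totals, 2 under cyclic loess and with the filter, and 0 by the Wald test and in the fit of 4 libraries.

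Between the growth regimes in WT, 6 of the 16 lipid genes rose and 4 fell (62.5% called), beside 44.8% of all genes called. Of the 31 nucleoporin genes 6 rose and 8 fell (45.2%), and of the 11 quality control and tether genes 5 rose and 1 fell (54.5%). OLE1 (1.30 ± 0.25, adjusted p = 0.00232), MGA2, which encodes its transcription activator (1.06 ± 0.21, adjusted p = 0.00262), and INO1 (0.96 ± 0.16, adjusted p = 0.00127) rose, while GLE2 had -0.86 ± 0.13 (adjusted p = 0.000705). RTN2, a membrane-bending reticulon, rose by 1.11 ± 0.18 (adjusted p = 0.00107). These 5 calls held under every alternative that tested them. The other counts were 3 rising and 1 falling of 10 for ESCRT-III (40%) and 1 rising of 7 for the spindle pole body (14.3%). For membrane shape 2 rose and 1 fell of 8 (37.5%). Without WT glucose replicate A or B, the counts called were 6 and 8 of the lipid genes, 7 and 6 of the nucleoporins, 3 and 2 of the quality control genes, 0 and 0 of ESCRT-III and 1 and 1 of the shape genes, and without B 0 of the spindle pole body genes. Without WT galactose replicate A they were 7 nucleoporins, 1 ESCRT-III gene and 1 shape gene, without B 6 ESCRT-III and 3 quality control genes, without either brr6-1 galactose replicate 2 ESCRT-III genes and 1 shape gene, and 7 ESCRT-III genes when brr6-1 glucose replicate A was left out. The spindle pole body count was 4 with library totals alone and 2 with DESeq2's size factors, and the quality control count was 3 under cyclic loess.

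In brr6-1, galactose against glucose, 2 of the lipid genes rose and 1 fell (18.8% called), and 2 of the quality control genes fell (18.2%). Over all genes 16.0% were called. None of the nucleoporin, ESCRT-III, spindle pole body or membrane shape genes passed in edgeR. At an unadjusted p under 0.05 stood 2, 2, 1 and 1 of them, and DESeq2's Wald test called 1, 0, 0 and 1. With library totals alone 1, 2, 1 and 0 of them passed, among them VPS20 (adjusted p = 0.0224), IST1 (0.0465) and BBP1 (0.0118). OLE1 rose in the mutant too, by 1.71 ± 0.25 (adjusted p = 0.00126), under every alternative that tested it. PAH1 rose by 0.40 ± 0.11 (adjusted p = 0.0329). It did not pass with DESeq2's size factors (0.0631), by DESeq2's Wald test (0.0610) or in a fit of the 4 libraries compared (0.0973). Its change was 0.34 to 0.45 when a brr6-1 library was left out. Without brr6-1 galactose replicate A the lipid count was 1, and without brr6-1 glucose replicate A it was 5. Without WT glucose replicate A or B, brr6-1 galactose replicate A or B or brr6-1 glucose replicate B, the quality control count was 1, as it was with library totals alone and in the fit of the 4 libraries compared.

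**Figure D4:**
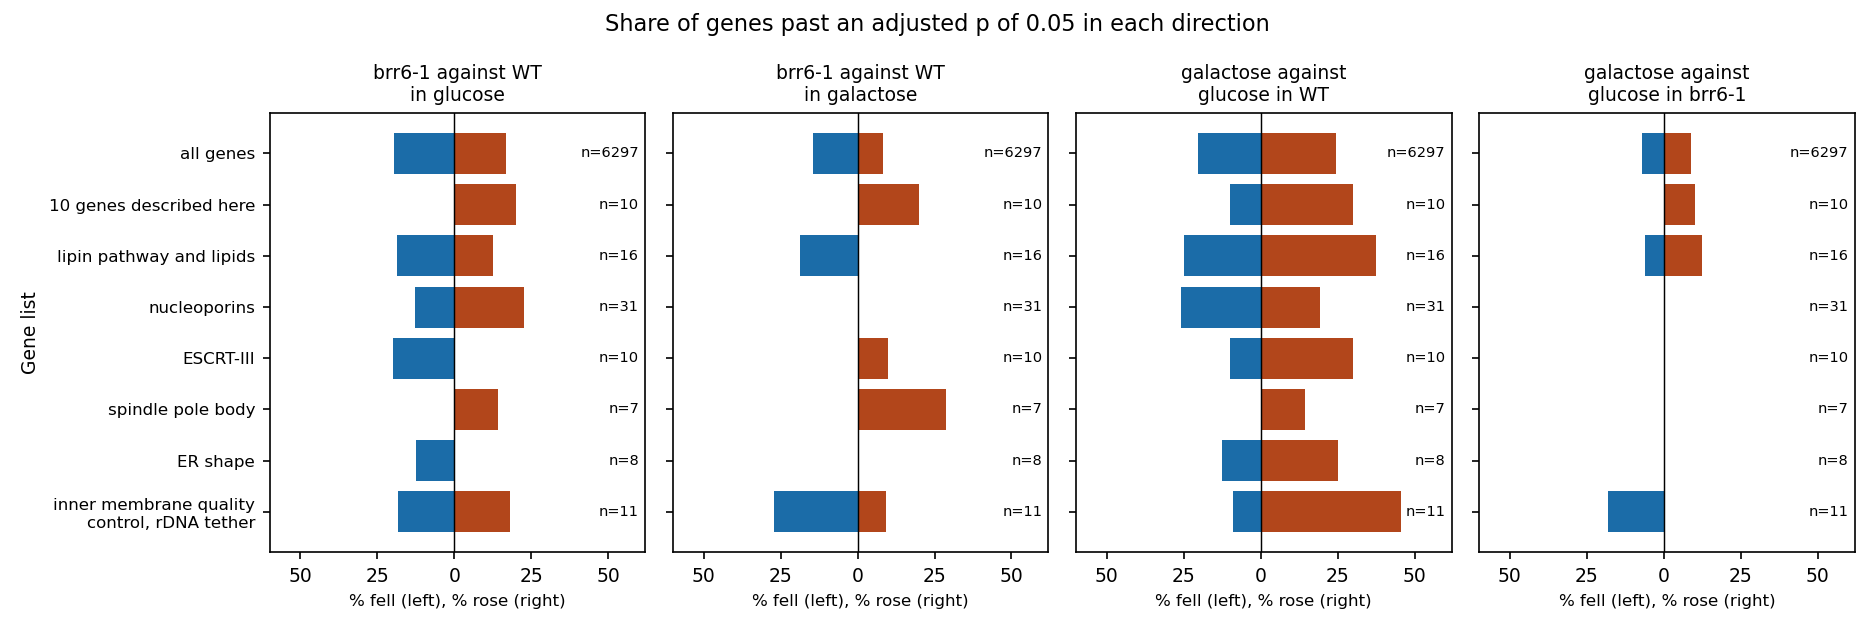
Share of each gene list that rose (orange, right) or fell (blue, left) past an adjusted p of 0.05, in percent, for the 4 comparisons of 2 groups; n is the number tested. In glucose 2 of the 10 genes rose, beside 16.7% of all genes, and BRL1 in WT is the only one of the 10 that fell in any panel.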

How the data were processed

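RNA depleted of ribosomal RNA was sequenced from a directional kit as single-end reads of 50 bp, per the labels' protocols. The deposited values are raw read counts per gene, which the authors made with cutadapt, TopHat and HTSeq on build R64, per the submitters' processing notes. Whether HTSeq counted by strand is not stated in those sources. The HTSeq total lines were left out of library sizes and tests. Reads without a gene made 23.4 to 37.5% of those with a gene or none, ambiguous ones 0.0552 to 0.0890% of all lines, and alignments that were not unique 53.5 to 65.3%. The share without a gene (A and B) was 23.4 and 24.1% in WT glucose and 28.5 and 29.2% in brr6-1 glucose. In galactose it was 37.3 and 26.7% in WT and 37.5 and 36.2% in brr6-1. The TMM factors also differed by group, at 0.831 and 0.808 in WT glucose and 1.20 and 1.17 in brr6-1 galactose. The part of these differences in the results was not tested. Names and coordinates came from a RefSeq table of R64, which matched 5898 of 6572 features. The authors also deposited ChIP-seq peaks with a signal per library, used here only for distances to the 10 genes.

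From the counts, edgeR 4.0.16 (R 4.3.3; TMM, filterByExpr with a minimum count of 10) was fitted to the 4 groups of 8 libraries, with quasi-likelihood tests and Benjamini-Hochberg adjustment. The SE was taken as log2 fold change divided by root F, and the 95% interval uses the residual 4 and the prior 6.242 degrees of freedom. The alternatives were DESeq2 1.42.0 (its size factors, and its Wald test), library totals, cyclic loess in limma-voom (limma 3.58.1), no filter, at least 100 counts in 2 libraries, each library left out, only the 4 libraries compared, and a replicate block; where leaving out left a group with 1 library, it was assumed to vary like the others. The scripts were tested on simulated data. Intervals cover counting error and the spread of 2 replicates per group, which limits precision.

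The 10 genes and the lists were chosen with earlier results of these data known. The text names all 10, BRR6, and per list at most 4 genes that passed and 2 that did not, by absolute log2 fold change. Outside this rule are RAD52, the mating-type genes, the transcripts nearest to BRL1 and APQ12, and PAH1 in the comparison of strains.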

Additional observations from a re-analysis of the deposited data

Results flagged for a closer look

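BRL1 was flagged because its libraries stood in opposite orders in the strains: in WT both galactose libraries lay below both glucose libraries, and in brr6-1 both lay above. The effect of brr6-1 in galactose minus that in glucose was 0.52 ± 0.18 on the log2 scale, with an adjusted p of 0.111 in edgeR's quasi-likelihood test. It did not pass the threshold of 0.05, and it passed without WT galactose replicate B (adjusted p = 0.0355).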

How the results depend on the processing

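Calls among the 10 genes changed when 1 library was left out, which leaves 1 library in its group. The part of that smaller group in the lost calls was not tested. For brr6-1 against WT the fitted changes then ran from 0.63 to 0.71 (CHM7) and 0.24 to 0.42 (NDC1) in glucose. In galactose they ran from 0.32 to 0.60 (BRL1) and 0.79 to 1.32 (APQ12). Between media in WT they ran from 0.52 to 0.70 (SRC1), 0.52 to 0.92 (CHM7), 0.25 to 0.38 (NEM1) and -0.59 to -0.27 (BRL1). Between media in brr6-1 SRC1 ran from 0.35 to 0.53. In glucose, brr6-1 against WT, 2 were called; 1 was with DESeq2's size factors, by DESeq2's Wald test and with the replicate block, 4 with library totals alone, and 0 to 2 with 1 library left out. In galactose 2 were called; 1 was under cyclic loess and with at least 100 counts in 2 libraries (a filter that removes APQ12), 3 with library totals alone, 0 with only the 4 libraries compared, and 0 to 2 with 1 left out. For galactose against glucose, leaving 1 out gave 0 to 5 in WT (4 as reported) and 0 to 1 in brr6-1 (1 as reported; 0 with DESeq2's size factors or only the 4 libraries compared), and 0 to 2 for the difference of the effects (0 as reported). Over all genes, leaving 1 out gave 516 to 2694 calls for brr6-1 against WT in glucose (2280 as reported), 423 to 1801 calls in galactose (1423 as reported), 1548 to 3034 calls for galactose against glucose in WT (2820 as reported), 492 to 1189 calls in brr6-1 (1008 as reported) and 3 to 816 calls for the difference of the effects (352 as reported). DESeq2's Wald test called 617 for the difference, against 352. The cause was not tested. Among the 10 genes and BRR6, no direction of a called gene turned over. Of the list genes, NVJ1, called lower in glucose, stood at 0.00792 with library totals alone (adjusted p = 0.958).

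Library totals alone moved the median over all genes to 0.36, 0.25, 0.40 and 0.25 in the 4 comparisons of 2 groups (0.03, 0.01, 0.10 and 0.04 as reported) and the share of calls that were higher to 86.5, 75, 79.7 and 80.9% (46.1, 36.7, 54.3 and 54.7%). DESeq2's Wald test moved the last to 43%. Same-lettered replicates did not deviate together throughout (correlations -0.0431 to 0.380 over 6 pairs of groups), so the letters are not shown to pair samples; with a replicate block the counts were 1, 2, 4, 1 and 0 of the 10 genes in the 5 comparisons. At 39 to 100 counts per library, APQ12 is limited by depth.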

Other observations

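The deposited list of 22 ChIP-seq peaks of FLAG-tagged Brr6 fragments named 0 of the 10 genes. The share of all genes that so short a list names was not counted, so this count only describes the list. The nearest was HEH2, 3034 bp from a peak on chromosome IV (1385080 to 1385300), and the next was SRC1 at 25145 bp. No peak lay on chromosome VIII, which holds BRL1 and NEM1, or on X, which holds CHM7.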
